A study of Homo sapiens with 12 samples.

Results

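Huh7 cells given an siRNA against circASH2 (si-circASH2) were compared with Huh7 cells given a negative control siRNA (si-NC) by bulk RNA sequencing. The comparison took the 6 libraries labelled Huh7 of the 12 in the series, 3 per group. Of the 23583 features in the count table, the 15443 with enough counts in these 6 libraries were tested, and 13567 of those carry a gene symbol. Huh7 is an established human hepatocellular carcinoma (HCC) line that keeps many functions of hepatocytes. The series asks how silencing of the circular RNA bears on HCC. Both groups received a short double-stranded RNA, the labels give no dose or time, and no untreated cells enter the comparison. The other 6 libraries hold the same pair of groups in HCCLM3, an HCC line known for its metastatic spread, and were used to test which effects differed between the lines and in an alternative fit.

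Circular RNAs form when a splice donor joins an acceptor that lies upstream of it, which closes exons of a host gene into a ring without free ends. circASH2 takes its name from the gene ASH2L. An siRNA loads its guide strand into an Argonaute protein and directs the cleavage of RNAs that pair with it along its length. Such short RNAs are also known to lower, more weakly, mRNAs whose 3′ UTR pairs only with the first bases of the guide, a region called the seed.

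Total counts lay between 29500169 and 30858895 per Huh7 library, and mitochondrially encoded genes took 8.90% to 10.3% of them. A count of 3 in a library corresponded to between 0.0987 and 0.101 CPM (counts scaled to a common library total). The first principal component held 42.1% of the variance and separated the si-circASH2 from the si-NC libraries. Nothing in the labels tells whether each of the 3 libraries in a group is its own culture. The p-values therefore weigh a difference against the spread within the groups of these 6 libraries, with information shared over genes. That spread may be technical. Levels are CPM scaled by TMM factors, means are given with the SD over 3 libraries, and changes are log2 fold changes (si-circASH2 over si-NC) with their standard error. A gene is called higher or lower when its edgeR adjusted p was under 0.05.

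The circle itself was not analysed here, because no feature of the table could be matched to it. Its host gene ASH2L, a core protein of the complexes that methylate histone H3 at lysine, stood at 75.5, 74.4 and 80.7 CPM in the si-NC libraries and at 66.9, 67.7 and 65.1 CPM in the si-circASH2 libraries. The groups did not overlap, as in 46.2% of all tested genes, and the change was -0.21 ± 0.05 (edgeR adjusted p = 0.00149). YBX1, an mRNA-binding protein, stood at 1401, 1380.3 and 1367 CPM against 1341, 1334 and 1280.4 CPM, and did not pass the test (-0.07 ± 0.03, edgeR adjusted p = 0.125).

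Many Huh7 genes changed, most of them by little. In all, 5386 genes (34.9%) passed the test, 2542 higher (16.5%) and 2844 lower (18.4%). Counts of called members in the gene lists that follow are to be read beside these shares. With upper quartile scaling in place of TMM the split turned to 3076 higher and 2264 lower, so the balance between the directions depends on the scaling. The median absolute change of the called genes was 0.30, against 0.10 for the others. A change of more than 1.5-fold was found for 867 genes (5.61%), of which 575 went upward (3.72%) and 292 downward (1.89%). A change of more than 2-fold was found for 176 genes upward (1.14%) and 62 downward (0.401%). The share of called genes was larger at higher level. It was 6.81% among the 1806 genes with a mean under 1 CPM and 54.3% among the 2057 above 100 CPM, where 360 were higher and 756 lower. In bulk RNA, fewer cells of a type and less RNA per cell cannot be told apart. With 3 libraries against 3, an exact permutation test of a single gene cannot give a two-sided p under 0.1.

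**Figure D1:**
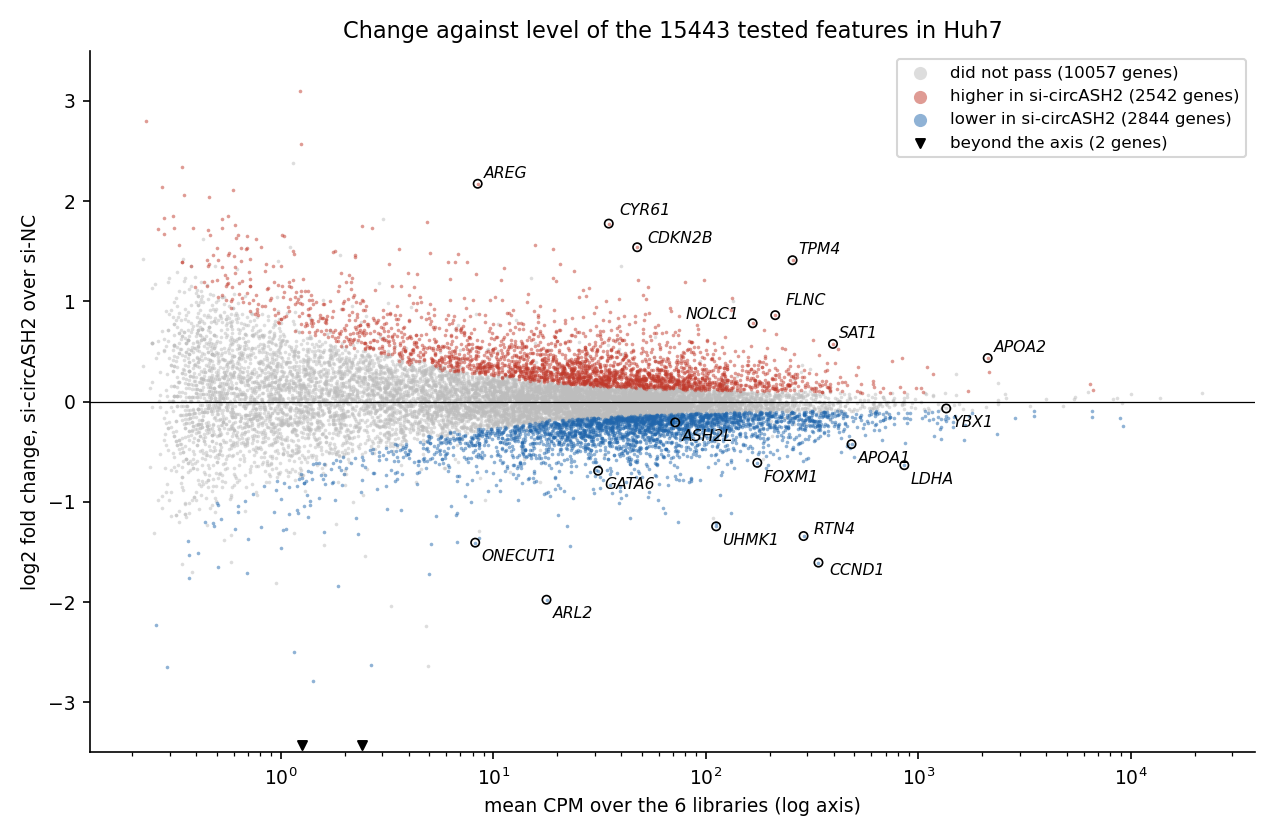
Mean level (CPM, log axis) against the log2 fold change of si-circASH2 over si-NC for each of the 15443 tested Huh7 features, coloured by call (2542 higher, 2844 lower); triangles mark 2 features beyond the axis. Called genes lie above and below 0 at all levels, and most lie close to it.

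CCND1, which encodes cyclin D1, the partner of CDK4 and CDK6 at the entry into the cell cycle, had the largest fall among named genes above 200 CPM. The gene lies on chromosome 11 (69641087 to 69654474, GRCh38, plus strand). Its level was 519, 512 and 498 CPM in the si-NC libraries and 168, 163 and 171 CPM in the si-circASH2 libraries. The groups stood far apart beside a spread of a few percent within each, with a change of -1.61 ± 0.04 (edgeR adjusted p = 1.13e-18). Per length, the mean went from 104 to 34.4 FPKM (fragments per kilobase of transcript, scaled to depth).

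RTN4, a membrane protein that shapes the tubules of the endoplasmic reticulum, stood at 419, 399.9 and 420.4 CPM in the controls and at 162, 156 and 171 CPM after knockdown (-1.34 ± 0.04, edgeR adjusted p = 1.32e-16). The kinase UHMK1, which phosphorylates splicing factors, went from 162, 155 and 154 CPM to 63.4, 66.7 and 68.9 CPM. LRRC58 went from 163, 155 and 146 CPM to 64.6, 69.7 and 66.9 CPM. In each of these genes all 3 si-circASH2 libraries lay under every control library. The other falls of this size among genes above 5 CPM were those of PRTG (-1.20 ± 0.05), SCML2 (-1.24 ± 0.07), the G protein gamma subunit GNG12 (-1.16 ± 0.06), AFF3 (-1.36 ± 0.11), the sulfotransferase GAL3ST1 (-1.42 ± 0.21), the hedgehog ligand IHH (-1.40 ± 0.14), the carnitine transporter SLC16A9 (-1.13 ± 0.13) and 2 transcription factors of the liver and pancreas, ONECUT1 (-1.41 ± 0.12) and PDX1 (-1.14 ± 0.15). Their groups did not overlap, which was part of the rule that chose them, and neither did those of 46.2% of all tested genes.

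ARL2, a small GTPase of tubulin folding, had the largest fall of the named genes. It stood at 28.8, 29.1 and 27.2 CPM in the controls and at 7.67, 7.09 and 6.87 CPM after knockdown (-1.98 ± 0.08, edgeR adjusted p = 2.62e-14). The annotation holds a readthrough gene that joins ARL2 to SNX15, so the counts of the pair could be split between them. SNX15 itself stood at 20.1, 20.2 and 18.4 CPM against 20.8, 16.9 and 17.1 CPM and did not pass the test (-0.10 ± 0.08). MICB, a stress-induced ligand of the receptor NKG2D on natural killer cells, went from 32.5, 31.9 and 36.0 CPM to 12.4, 12.4 and 12.1 CPM. Its close paralog MICA, with which reads may be shared, stood at 5.33 ± 0.284 CPM and 4.37 ± 0.713 CPM and did not pass the test.

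Many of these falling genes share a short sequence in the 3′ UTR, which the rule that named them did not use. The 8 bases TTATACCA, the 7-base parts TTATACC and TATACCA, and the 8 bases TCGGAGAA were searched on the transcribed strand of the longest annotated 3′ UTR of each gene (GENCODE 29, GRCh38). They had been picked in earlier work on these same libraries, so the counts are a description and not a test. Of the 15 largest falls, 6 carried TTATACCA (GAL3ST1, AFF3, RTN4, UHMK1, GNG12 and SLC16A9), 5 carried only a 7-base part (CCND1, MICB, SCML2, LRRC58 and PRTG) and 4 carried neither (ARL2, ONECUT1, IHH and PDX1). The windows of 30 bases that follow show where the sequence stands in genes the results turn on, 5′ to 3′, with the matched bases in capitals.
RTN4 (chr2:54972265-54972294, minus strand): aaaatgaagatTTATACCAttgtggtttaa
UHMK1 (chr1:162524037-162524066, plus strand): tgaagcactgaTTATACCAaaaaaaaaaga
GNG12, first copy (chr1:67703365-67703394, minus strand): aattacttttaTTATACCAttatgtgcatg
GNG12, second copy (chr1:67702435-67702464, minus strand): aaaccaaaactTTATACCAatgatttagta
GAL3ST1 (chr22:30554731-30554760, minus strand): tatttaactaaTTATACCAgtttttattaa
LDHA (chr11:18407798-18407827, plus strand): ctatccaagtgTTATACCAactaaaacccc
CCND1 (chr11:69651566-69651595, plus strand): gatagaggattTTATACCccaataatcaac
MICB (chr6:31511083-31511112, plus strand): gtgtgcataatTTATACCgtaaatgtttac
All lie in 3′ UTR exons. Among 3′ UTRs within 20% of the same length, TTATACCA was found in 1.87% of 1606 for RTN4, 0.662% of 906 for GAL3ST1, 2.21% of 1720 for LDHA, 8.63% of 1449 for GNG12 and 13.6% of 486 for UHMK1. The 7-base TTATACC of CCND1 was found in 15% of 1721. It was found in 5.24% of 1794 for MICB, 8.79% of 1922 for SCML2, 24.6% of 585 for LRRC58 and 27.3% of 348 for PRTG. TATACCA, which MICB, LRRC58 and PRTG also carry, was found in 6.19%, 26.5% and 37.1% of the same UTRs.

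Across the Huh7 transcriptome, genes with TTATACCA were lower more often than genes without it. Of 13383 tested genes with an annotated 3′ UTR, 506 (3.78%) held TTATACCA, and of these 217 (42.9%) were lower and 56 (11.1%) higher, with a median change of -0.13. Of the 1300 (9.71%) with only a 7-base part, 418 (32.2%) were lower and 174 (13.4%) higher, with a median of -0.07. The 11577 genes with neither gave 2081 lower (18%) and 2098 higher (18.1%). A fall of more than 1.5-fold was found for 10.1% of the first class and 1.33% of the last. The UTRs of the first class were longer, with a median of 3481 bases against 1145. In each of 5 bands of UTR length the share lower was 38.7% to 50% with TTATACCA and 16.3% to 19.9% with neither. Most carriers did not pass the test downward, and CYR61, one of the largest rises, carries TTATACC. The sources used here give neither siRNA sequence, so whether these bases pair with either siRNA was not tested.

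TCGGAGAA stood in the 3′ UTR of 79 tested genes (0.59%), and of these 33 (41.8%) were higher and 6 (7.59%) lower, with a median change of 0.17. Of the 13304 genes without it, 2295 (17.3%) were higher. Both groups received an siRNA, so a level lowered by the control siRNA and a level raised by si-circASH2 cannot be told apart here, for carriers such as TPM4, TUFT1 and G3BP2 as for the other genes. Whether TCGGAGAA pairs with the control siRNA was not tested. Of the 14 large rises described here 3 carried it, namely TPM4, TUFT1 and ZNF616, and of the 8 largest rises among abundant genes 2 did, TPM4 and G3BP2. The matches of ZNF616 are coding bases in another of its transcripts. The other 3 genes hold the sequence in the windows shown here, capitals again marking the match.
TPM4 (chr19:16101482-16101511, plus strand): aatattttgtaTCGGAGAAgctttgagcac
TUFT1 (chr1:151581738-151581767, plus strand): ctgcctctgccTCGGAGAAgcccactgccc
G3BP2 (chr4:75644092-75644121, minus strand): tactgcaatttTCGGAGAAaagaacagcag
TCGGAGAA was found in 0.617% of 1945 UTRs of like length for TPM4, 0.873% of 1947 for TUFT1 and 1.03% of 1840 for G3BP2.

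**Figure D2:**
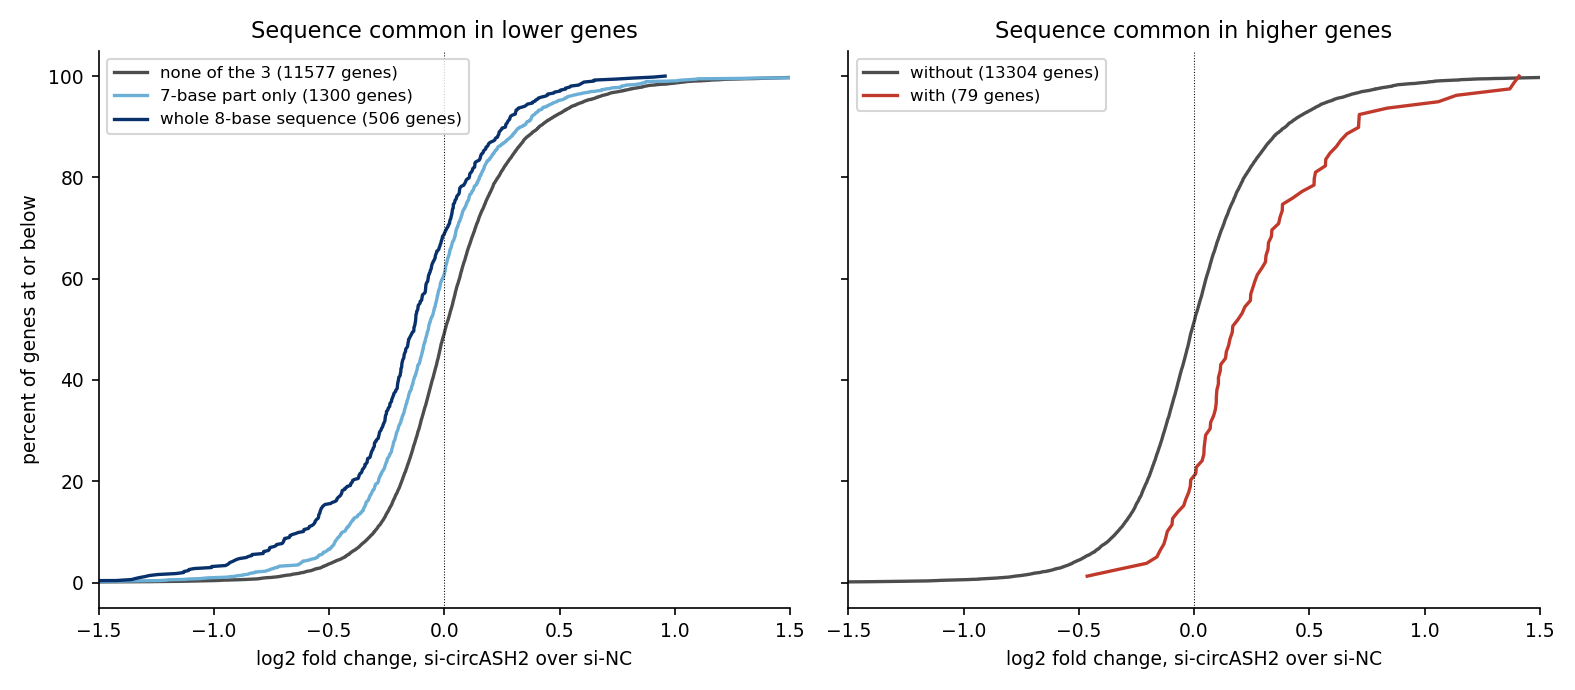
Cumulative share of genes (vertical axis) by Huh7 log2 fold change (horizontal axis) for classes of genes by the short sequence in their longest 3′ UTR. The curve of the 506 genes with TTATACCA lies to the left of the others (median -0.13), that of genes with only a 7-base part between (median -0.07), and that of the 79 genes with TCGGAGAA to the right (median 0.17).

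TPM4, a tropomyosin that coats actin filaments, was the most abundant of the 14 genes with large rises described here. It stood at 134, 140.0 and 146 CPM in the si-NC libraries and at 361, 386 and 368 CPM in the si-circASH2 libraries, with a change of 1.41 ± 0.04 (edgeR adjusted p = 9.24e-17). Per length, its mean went from 47.2 to 124 FPKM. All 3 knockdown libraries lay above every control library, which was a condition of the choice of these rises.

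AREG, the EGF receptor ligand amphiregulin, had the largest fold among these 14 genes. It went from 2.37, 3.19 and 3.63 CPM to 12.2, 15.6 and 13.7 CPM (2.17 ± 0.14, edgeR adjusted p = 8.93e-11). CYR61, a secreted matrix protein and a textbook target of the YAP coactivator, went from 15.3, 17.1 and 14.99 CPM to 51.3, 59.2 and 51.7 CPM (1.78 ± 0.07). CDKN2B, the CDK4 and CDK6 inhibitor p15, went from 24.1, 23.9 and 24.96 CPM to 71.5, 70.2 and 70.4 CPM (1.54 ± 0.05). For these 3 genes the lowest knockdown library exceeded the highest control library by more than the spread of either group. ANXA1, a calcium-dependent membrane-binding annexin, stood at 15.2, 13.5 and 13.01 CPM against 31.9, 39.4 and 31.3 CPM (1.30 ± 0.09). MYOF, myoferlin, a membrane repair protein, stood at 9.86 ± 0.578 CPM against 28.3 ± 2.08 CPM (1.52 ± 0.08). The remaining 8 of the 14 rises lay between 1.33 and 1.56 and were those of the phospholipase PLA1A, the microfibril protein FBN1, RANBP3L, FSTL1, the phosphatase DUSP13, ZNF616, TUFT1 and the desmosomal plakin PPL.

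**Figure D3:**
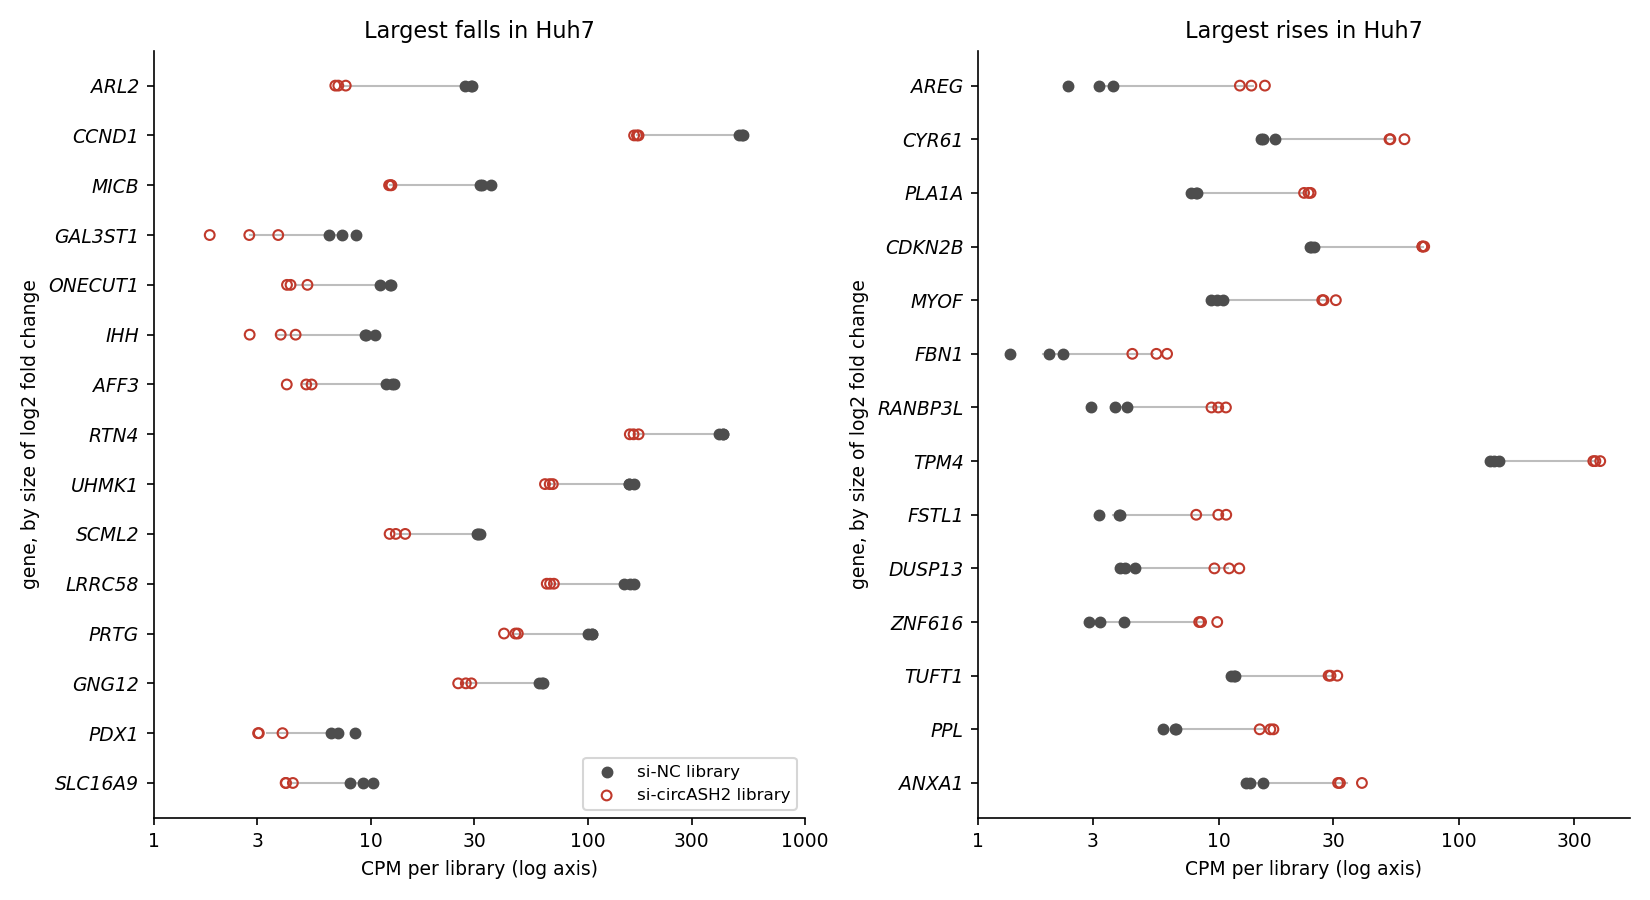
Level in each of the 6 Huh7 libraries (CPM, log axis) of the 15 genes with the largest falls and of 14 genes with large rises above 5 CPM, points coloured by group. The 3 points of a group lie close together and the groups do not overlap for any of the 29 genes, which was a condition of the choice.

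Among genes above 200 CPM the rises were smaller. After TPM4 the largest was that of FLNC, the actin crosslinker filamin C, from 144, 151 and 156 CPM to 274, 281 and 265 CPM (0.86 ± 0.04). The nucleolar chaperone NOLC1 rose by 0.78 ± 0.04, the stress granule protein G3BP2 by 0.72 ± 0.04, PLEKHB2 by 0.68 ± 0.04, the intermediate filament nestin (NES) by 0.61 ± 0.04, the polyamine acetyltransferase SAT1 by 0.58 ± 0.04 and the semaphorin receptor PLXND1 by 0.54 ± 0.04. On the falling side, after CCND1 and RTN4, A1CF, an RNA-binding cofactor of apolipoprotein B mRNA editing, went from 316, 306 and 302 CPM to 185, 183 and 199.5 CPM (-0.70 ± 0.04) and carries TTATACCA in 2 places of its 3′ UTR. The activin antagonist follistatin (FST) changed by -0.66 ± 0.04, the sterol enzyme MSMO1 by -0.60 ± 0.06, the mitotic transcription factor FOXM1 by -0.61 ± 0.04 and the ribonucleotide reductase subunit RRM2 by -0.58 ± 0.04. LDHA, which turns pyruvate into lactate, stood at 990.3, 1014 and 1127 CPM in the controls and at 649, 663 and 704 CPM after knockdown (-0.63 ± 0.05).

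Replication and kinetochore genes had larger shares of lower members than any other list described here. Cells license replication origins with the MCM complex, copy DNA in S phase and segregate chromosomes through the kinetochore, and E2F factors and FOXM1 are known to drive the genes of these steps. Of 54 tested genes of origin licensing and replication forks, 45 (83.3%) were lower and 0 higher, with a median change of -0.31 beside 0.00 over all tested genes. Of 56 kinetochore and spindle checkpoint genes 45 (80.4%) were lower and 3 higher (median -0.37), and of 46 genes of recombination and crosslink repair 28 (60.9%) were lower and 3 higher (median -0.30). Over all tested genes 18.4% were lower.

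The log2 changes of the 8 members given next lay between -0.38 and -0.78. MCM6, a subunit of the replicative helicase, went from 191, 196 and 190.3 CPM to 137, 135 and 136 CPM. PCNA, the sliding clamp of the replication fork, went from 248, 246 and 236 CPM to 165, 175 and 169.8 CPM. CDK1, the kinase that drives entry into mitosis, went from 98.7, 100.2 and 95.8 CPM to 55.0, 62.2 and 54.1 CPM. In none of these 3 did the groups overlap, which also held for 46.2% of all tested genes. CCNA2 changed by -0.66 ± 0.04, AURKB by -0.53 ± 0.04, PLK1 by -0.53 ± 0.05, the nuclease EXO1 by -0.68 ± 0.07 and BRCA1 by -0.38 ± 0.06. Most members of these lists, lower or not, carried neither TTATACCA nor its 7-base parts, as did 86.5% of all tested genes with an annotated 3′ UTR. Among members without them, 42 of 51 replication genes (82.4%), 41 of 51 kinetochore genes (80.4%) and 23 of 38 recombination genes (60.5%) were lower.

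The control genes of G1 and S phase moved in both directions, with 22 of 41 lower (53.7%), 8 higher (19.5%) and a median of -0.23. Beside CCND1, the falls included E2F1, from 74.6, 77.8 and 78.9 CPM to 44.8, 42.4 and 43.7 CPM, the phosphatase CDC25A (-0.76 ± 0.04), which carries TTATACCA, and cyclin E1, CCNE1 (-0.64 ± 0.06). The 2 tested genes of this list with TTATACCA were lower. The CDK inhibitors split. CDKN2B rose as given above, CDKN1A (p21) went from 13.99, 15.2 and 15.7 CPM to 23.4, 23.8 and 25.6 CPM and CDKN2A rose by 0.31 ± 0.07, while CDKN1B (p27) fell from 73.7, 75.7 and 67.4 CPM to 43.4, 45.6 and 41.7 CPM. Of the cyclin D partners CDK6 rose by 0.62 ± 0.06, and CDK4, at 208 ± 5.63 and 218 ± 9.40 CPM, did not pass the test.

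ERK feedback and target genes were higher more often than lower. EGF family ligands bind EGFR and its relatives, which act through RAS and ERK, and ERK induces both early response factors and the phosphatases that switch it off. Of 33 tested ERK feedback and target genes 17 (51.5%) were higher and 4 (12.1%) lower, with a median change of 0.24, beside 16.5% higher over all tested genes. The early response factors of the AP-1 and EGR families and their kin gave 11 of 39 higher (28.2%) and 4 lower, and 7 higher without si-NC replicate 1, si-NC replicate 2 or si-circASH2 replicate 3, and with DESeq2. The EGF family list gave 6 of 19 higher and 5 lower, and 6 and 3 without si-circASH2 replicate 2.

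Several ligands rose together with AREG. HBEGF stood at 11.3, 8.55 and 8.91 CPM in the controls and at 16.4, 16.4 and 16.6 CPM after knockdown, EGF rose by 0.50 ± 0.06 and the neuregulin NRG1, at low level, by 0.81 ± 0.21. Among the receptors ERBB3 fell from 320.5, 326 and 325 CPM to 223, 225 and 235 CPM, and EGFR, at 319 ± 4.76 and 322 ± 9.83 CPM, did not pass the test. DUSP6, the phosphatase that removes phosphate from ERK, rose from 168, 161 and 174 CPM to 217, 212 and 224 CPM. FOSL1 (0.66 ± 0.12), IER3 (0.73 ± 0.11) and FOS (0.52 ± 0.14) rose from under 15 CPM. MYCN fell by 0.50 on the log2 scale, from 105 ± 3.24 to 74.4 ± 1.47 CPM, and MYC, at 47.0 ± 1.76 and 49.4 ± 1.38 CPM, did not pass the test. CCND1, a known target of this pathway, was the member that moved furthest, and it fell.

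Most annexin and S100 genes were higher. Annexins bind phospholipid in the presence of calcium, often with an S100 dimer as partner. Of 25 tested genes of the annexin and S100 list, which includes the related ferlins MYOF and DYSF, 17 (68%) were higher and 1 lower. The median change was 0.34. Among all tested genes 16.5% were higher and 18.4% lower. S100A6 went from 29.1, 26.8 and 30.01 CPM to 47.3, 53.01 and 42.1 CPM. S100A4 went from 12.05, 11.5 and 14.9 CPM to 19.9, 24.8 and 20.9 CPM. S100A11 went from 137, 139 and 133 CPM to 185, 178 and 176 CPM. The groups overlapped in none of these S100 genes, nor in 46.2% of all tested genes. DYSF rose by 0.95 ± 0.08. Of 53 genes of collagens, laminins and matrix glycoproteins 20 (37.7%) were higher, 6 (11.3%) lower and 27 did not pass the test, with a median of 0.13. The laminin chain LAMA4 went from 16.2, 17.3 and 19.6 CPM to 38.4, 37.4 and 40.5 CPM and the collagen-binding SPARC from 28.3, 27.0 and 27.7 CPM to 48.8, 50.3 and 48.8 CPM. Fibronectin (FN1), by far the most abundant of the genes named here from this list, moved the other way, from 6875 ± 246 to 6161 ± 75.6 CPM (-0.16 ± 0.04).

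Cell junction and simple keratin genes were divided, with 13 of 40 higher (32.5%) and 10 lower (25%). The shares over all tested genes were 16.5% and 18.4%. The simple keratins KRT8 (0.29 ± 0.03) and KRT18 (0.34 ± 0.04) rose, as did the gap junction protein GJA1 (0.53 ± 0.04) and PPL. A change of more than 1.5-fold was found for 2 members of the list upward and 1 downward.

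Genes of hepatocyte identity fell more often than they rose. The hepatocyte transcription factors regulate one another and the genes of secreted plasma proteins. Of 32 tested factors 15 (46.9%) were lower and 5 (15.6%) higher, with a median of -0.22 (13 lower and 7 higher under upper quartile scaling, and 15 and 3 without si-NC replicate 1 or si-circASH2 replicate 1). HNF4A, the central one of them, went from 248, 242 and 238 CPM to 194, 183 and 196 CPM, GATA4 from 105, 105 and 109 CPM to 75.8, 73.5 and 70.4 CPM and GATA6 from 38.6, 38.4 and 38.2 CPM to 25.02, 23.4 and 23.02 CPM. The groups of all 3 stood apart, as did those of 46.2% of all tested genes. FOXA2 changed by -0.30 ± 0.07 and HHEX by -0.48 ± 0.04, while NR2F2 (0.48 ± 0.05) and the xenobiotic receptor NR1I2 (1.19 ± 0.23, from 1.24 ± 0.387 CPM) rose.

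Of 33 plasma protein genes 14 (42.4%) were lower and 3 higher, with a median of -0.11. Albumin (ALB) stood at 10128, 9981 and 9636 CPM against 8461, 8424 and 8320.5 CPM, and the vitamin D carrier GC at 282, 259 and 284 CPM against 209.7, 192 and 205 CPM. Alpha-fetoprotein (AFP) changed by -0.17 ± 0.03 and fibrinogen alpha (FGA) by -0.35 ± 0.04, while transthyretin (TTR) rose by 0.35 ± 0.04. With all 12 libraries in the fit 10 of the plasma protein genes were called in place of 17, and ALB did not pass (edgeR adjusted p = 0.0521). The apolipoproteins split, with APOA1 going from 538, 549.8 and 577 CPM to 401, 416 and 423 CPM and APOA2 from 1754, 1846 and 1802 CPM to 2477, 2494 and 2329 CPM. Of 28 lipoprotein genes 5 were higher (17.9%) and 7 lower (25%), beside 16.5% and 18.4% over all tested genes. Of 25 genes of bile acid synthesis and transport (3 higher and 4 lower under upper quartile scaling or without si-NC replicate 1) 1 was higher, the export pump ABCC3 (0.70 ± 0.07), and 5 were lower, among them the uptake carrier SLCO1B3 (-0.59 ± 0.07) and the FGF19 coreceptor KLB (-0.41 ± 0.04).

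Enzymes of detoxification and amino acid breakdown changed in both directions. Of 49 cytochrome P450 and conjugation genes 11 (22.4%) were higher and 3 (6.12%) lower, although the median was -0.04. CYP24A1, the vitamin D hydroxylase, had the largest fold of the genes named here, at 0.296, 0.134 and 0.330 CPM in the controls and 1.98, 2.34 and 2.29 CPM after knockdown (3.10 ± 0.33), levels that rest on few counts. UGT2B4 rose from 90.4, 90.4 and 91.3 CPM to 124, 129.8 and 125 CPM. Of 45 urea cycle and amino acid genes 16 (35.6%) were higher and 11 (24.4%) lower, with a median of 0.11. They included the cystathionine lyase CTH (0.81 ± 0.07) and tyrosine aminotransferase, TAT (0.70 ± 0.10), among the rises and sarcosine dehydrogenase, SARDH (-0.51 ± 0.06), among the falls.

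Central energy metabolism showed mixed changes, to be set beside 16.5% higher and 18.4% lower over all tested genes. Of 40 glycolysis and gluconeogenesis genes 7 were higher (17.5%) and 11 lower (27.5%). LDHA, TPI1 (-0.24 ± 0.04) and the lactate carrier SLC16A1 (-0.34 ± 0.04) fell and PCK2 rose (0.45 ± 0.07). Under upper quartile scaling the split was 9 and 9, and without si-circASH2 replicate 3 the list gave 11 calls in place of 18. Fatty acid oxidation gave 6 of 37 higher (16.2%) and 10 lower (27.0%), 1 of them by more than 1.5-fold. The isomerase ECI1 (0.50 ± 0.06) was among the rises and the acyl-CoA synthetase ACSL4 (-0.38 ± 0.04) among the falls. This list gave 8 and 8 under upper quartile scaling, and 5 and 6 without si-NC replicate 2. Of 76 nuclear genes of the respiratory chain 4 were higher (5.26%) and 13 lower (17.1%), and under upper quartile scaling 15 and 12. Without si-circASH2 replicate 3 the split was 11 and 10, and without si-NC replicate 2 it was 8 and 10. NDUFA5, a complex I subunit whose 3′ UTR carries TTATACCA, fell from 53.6, 56.6 and 58.0 CPM to 39.5, 39.7 and 40.3 CPM. Of the 2 tested nuclear genes of the respiratory chain with TTATACCA, 1 was lower. Of 13 mitochondrially encoded genes 2 were higher, MT-ND1 (0.18 ± 0.04), which did not pass with all 12 libraries in the fit (edgeR adjusted p = 0.246), and MT-ND5 (0.12 ± 0.04), whose call was lost in 7 of 13 settings. The number ran from 1 to 6 when 1 library was left out. The value of 6 came without si-circASH2 replicate 2, and the value of 1 without si-NC replicate 2, si-NC replicate 3 or si-circASH2 replicate 1. Mitochondrial ribosomal proteins gave 24 of 77 lower (31.2%) and 3 higher (14 and 7 under upper quartile scaling), with 16 calls in place of 27 without si-NC replicate 1 and 17 without si-NC replicate 2.

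Genes that act on RNA were mostly lower, each by a small amount. Of 51 SR proteins and hnRNPs, which bind nascent RNA and steer splicing, 32 (62.7%) were lower and 3 higher, with a median change of -0.15. PTBP1 went from 462, 468 and 467 CPM to 385, 375 and 375 CPM. RBFOX2 went from 102, 105 and 103 CPM to 71.5, 72.6 and 71.1 CPM. Both were without overlap, as were 46.2% of all tested genes. Of 29 genes of the RNA interference machinery, on which siRNAs themselves depend, 15 (51.7%) were lower and 4 (13.8%) higher (10 and 5 under upper quartile scaling, and 12 and 2 without si-circASH2 replicate 1). Argonaute 2 (AGO2) went from 60.9, 59.0 and 61.7 CPM to 44.4, 43.3 and 44.3 CPM, and DICER1, which cuts small RNAs from their precursors, from 64.4, 60.4 and 60.3 CPM to 38.8, 45.9 and 45.2 CPM. Among members with neither TTATACCA nor its parts, 25 of 40 SR and hnRNP genes (62.5%) and 10 of 22 RNA interference genes (45.5%) were lower.

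Lysosome and autophagy genes were more often higher, with 23 of 62 (37.1%) higher, 7 (11.3%) lower (4 without si-NC replicate 3) and a median of 0.08. The shares over all tested genes were 16.5% higher and 18.4% lower. MAP1LC3B, a marker protein of autophagosomes, rose by 0.40 ± 0.05. GABARAPL2, of the same family and with TTATACCA in its 3′ UTR, fell from 53.3, 49.4 and 49.7 CPM to 28.0, 28.1 and 28.4 CPM. Of the 3 tested genes of this list with TTATACCA, 1 was lower. Of 43 proteasome genes 2 were higher and 6 lower, and under upper quartile scaling 5 and 3. Without si-NC replicate 1 the split was 2 and 2, without si-NC replicate 2 it was 3 and 3, and without si-circASH2 replicate 3 it was 4 and 3.

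Stress pathways gave no common direction. The integrated stress response, which acts through ATF4, split into 9 of 34 higher and 10 lower (10 and 6 under upper quartile scaling). Its phosphatase subunit PPP1R15A went from 44.8, 48.4 and 49.4 CPM to 72.3, 80.8 and 75.4 CPM and DDIT3 rose by 0.50 ± 0.08, while the folate enzyme MTHFD2 went from 89.4, 91.3 and 86.2 CPM to 57.1, 56.7 and 56.4 CPM and the amino acid carrier SLC7A5 fell by 0.47 on the log2 scale. Without si-NC replicate 2, 12 of these genes were called in place of 19. The cytosolic aminoacyl-tRNA synthetases gave 5 of 20 higher and 6 lower (6 and 4 under upper quartile scaling), and 5 calls in place of 11 without si-NC replicate 1 and 7 without si-NC replicate 2, si-NC replicate 3 or si-circASH2 replicate 3. Chaperones of the endoplasmic reticulum gave 8 of 34 higher and 9 lower (10 and 7 under upper quartile scaling), with 11 calls in place of 17 without si-NC replicate 2. Of 45 heat shock proteins 9 were higher, led by the small chaperone HSPB8 (0.79 ± 0.05), and 9 lower. Of 40 genes of the NRF2 and glutathione list 8 were higher and 9 lower. The rises included the reductase AKR1B10 (0.67 ± 0.06) and the falls sulfiredoxin, SRXN1 (-0.48 ± 0.04).

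Of 48 genes of the p53 and apoptosis list 11 were higher and 12 lower (14 and 9 under upper quartile scaling). The initiator caspase CASP8 rose by 0.57 ± 0.05 and the kinase PLK2 by 1.07 ± 0.10, while BCL2L11, which encodes the proapoptotic BIM, went from 45.4, 44.5 and 42.0 CPM to 26.3, 25.4 and 28.4 CPM.

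Interferon response genes were higher in 10 of 36 cases (27.8%) and lower in 1 (2.78%), with a median of 0.11. Among all tested genes 16.5% were higher and 18.4% lower. These genes answer interferon and foreign RNA. Among those called were IFIT2 at 0.629 ± 0.127 against 1.41 ± 0.343 CPM, IFITM2 at 3.14 ± 0.467 against 4.90 ± 0.607 CPM and IFITM3 at 16.2 ± 0.229 against 21.9 ± 1.10 CPM. MX2, at 120.0 ± 0.192 CPM, rose by 0.26 ± 0.04. Of 26 genes of antigen presentation and NK cell ligands 2 were higher, HLA-E among them (0.29 ± 0.07), and 5 lower, led by MICB, with 3 and 4 under upper quartile scaling. The proteasome activator PSME1, with TTATACCA in its 3′ UTR, changed by -0.53 ± 0.06, and was the 1 tested gene of this list with it. Of 45 complement and coagulation genes 5 were higher (11.1%), such as C1S (0.70 ± 0.07), and 8 lower (17.8%), such as F12 (-0.67 ± 0.09). Without si-NC replicate 3 the split was 10 higher and 5 lower, without si-NC replicate 2 it was 3 and 7, and without si-circASH2 replicate 1 it was 2 and 8.

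In the handling of metals, 8 of 33 genes were higher and 12 lower (9 and 9 under upper quartile scaling, and 9 and 8 without si-circASH2 replicate 1). SLC11A2, the iron importer DMT1, went from 67.7, 70.0 and 72.5 CPM to 34.0, 38.0 and 36.9 CPM, and the iron-regulatory protein ACO1 from 72.6, 70.2 and 66.9 CPM to 45.2, 50.1 and 48.4 CPM. Both carry TTATACCA in the 3′ UTR. In this list 4 tested genes carry it, and 3 of these were lower. HFE2, the BMP coreceptor hemojuvelin, rose by 1.23 ± 0.15 and the metallothionein MT1G by 0.84 ± 0.15. Of 22 clock genes 5 were higher and 8 lower (7 and 6 under upper quartile scaling, and 2 or 3 higher without any 1 of the libraries other than si-circASH2 replicate 2), with falls of ARNTL2 (-0.92 ± 0.08) and PER2 (-0.53 ± 0.06) and a rise of HLF (0.63 ± 0.06).

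**Figure D4:**
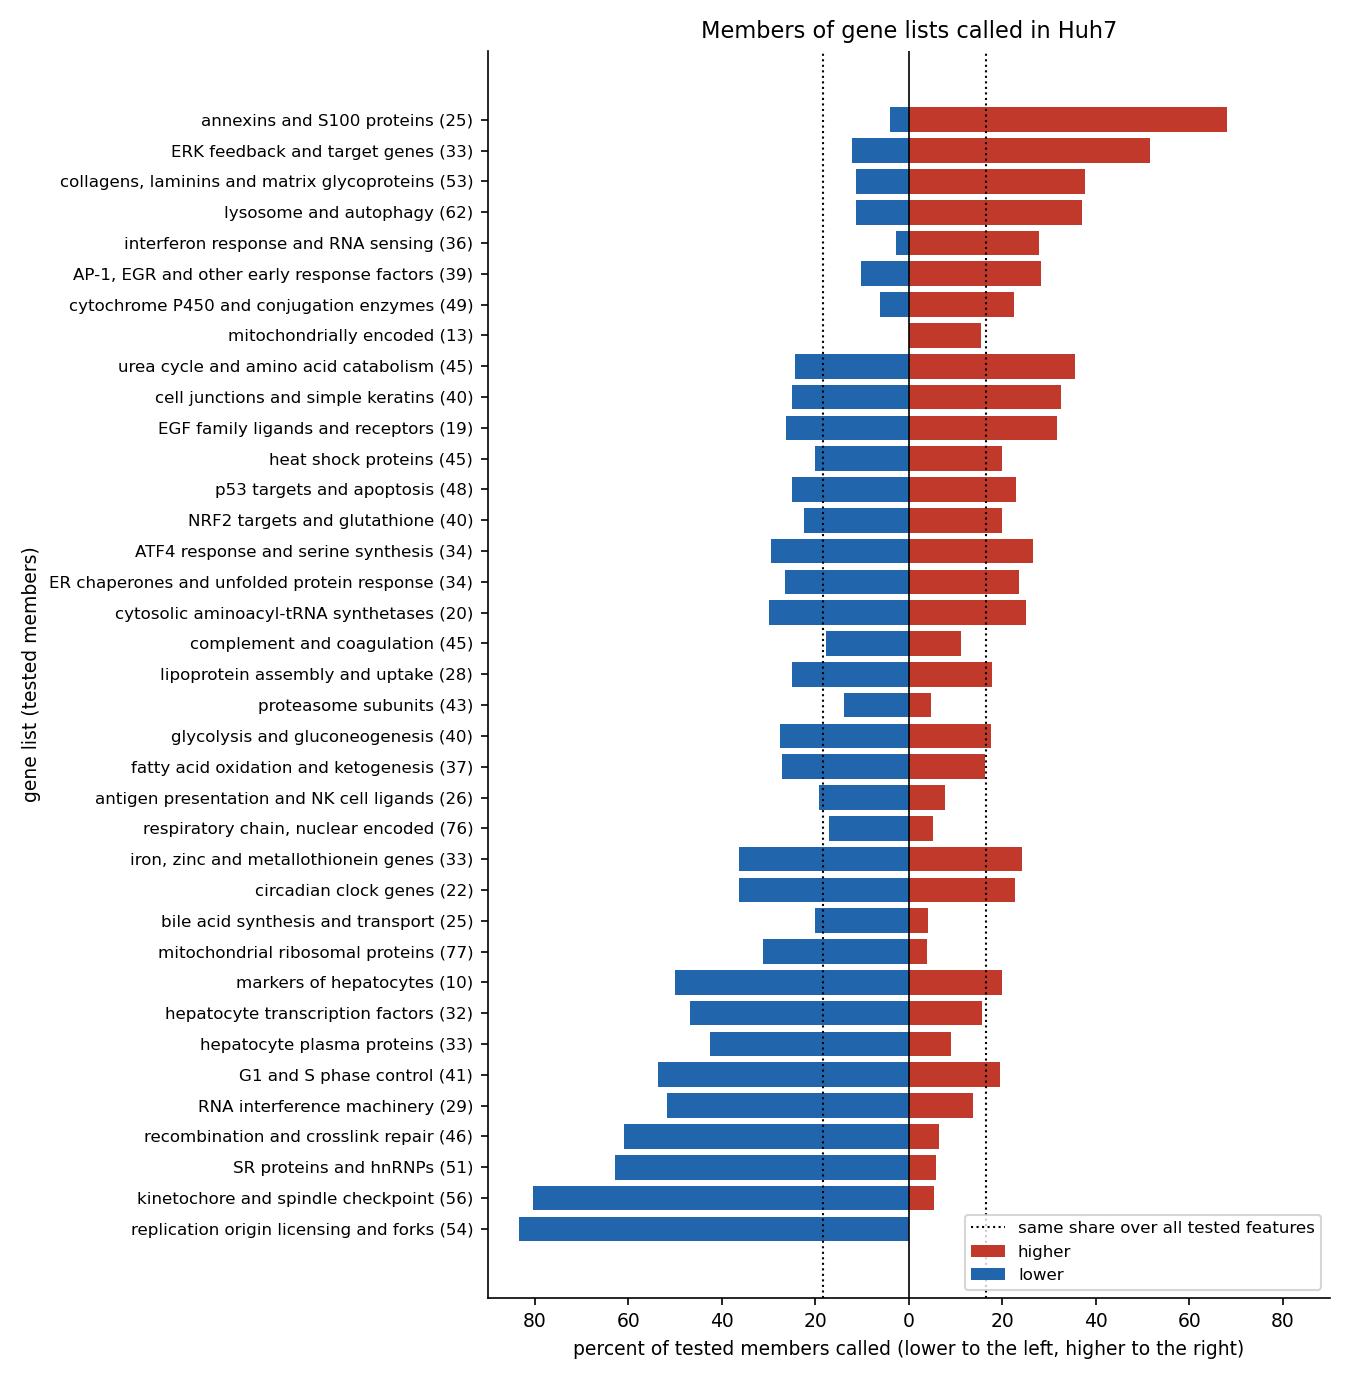
Percent of the tested members of each gene list with at least 10 tested that were higher (right) and lower (left) in Huh7 si-circASH2 libraries, with the shares over all tested genes, 16.5% and 18.4%, as dotted lines. Replication, kinetochore, recombination and SR and hnRNP genes reach furthest to the lower side and annexin and S100 genes furthest to the higher side.

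Apart from the leukocyte marker LYZ, markers of other cell types were low or had no count in these cultures. Some moved beside the matrix genes. Of 10 fibroblast markers, DCN, THY1, FAP and POSTN had no count in any of the 6 libraries, and of the 6 tested, 4 were higher and 0 lower. Their summed level was 38.2 to 43.5 CPM in the controls and 59.9 to 60.9 CPM after knockdown, most of it COL1A2 (0.65 ± 0.07). COL1A2 is also a member of the matrix list, so these lists are not separate measures. COL3A1 stood at 0.230, 0.369 and 0.231 CPM against 1.55, 0.297 and 0.995 CPM, groups that overlap, and did not pass without si-NC replicate 1 (edgeR adjusted p = 0.0615) or si-circASH2 replicate 1 (0.106). The part of other cells in the change of the matrix genes was not tested. Of 10 endothelial markers 4 had no count and 3 were tested, of which ESAM was higher (0.76 ± 0.26) in the fit with all 6 libraries. It was not called without si-NC replicate 1, si-NC replicate 2 or si-circASH2 replicate 2. The summed level of the endothelial markers was 25.3 to 29.01 CPM against 25.3 to 26.7 CPM. Of 5 tested leukocyte markers CD68 (0.88 ± 0.06) and ITGAM (1.07 ± 0.20) were higher and LYZ (-0.28 ± 0.04) lower. The leukocyte markers summed to 398 to 434 CPM in the controls and 353 to 380 CPM after knockdown, most of it LYZ. PTPRC, which defines leukocytes, had no count in 5 of the 6 libraries. The 10 hepatocyte markers summed to between 39681 and 39883 CPM in the controls and between 37114 and 37706 CPM after knockdown, so the defining markers of the labelled tissue of origin were present.

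The effect of si-circASH2 in Huh7 was last set against that in HCCLM3, by the difference of the 2 log2 fold changes in 1 edgeR fit of all 12 libraries (HCCLM3 minus Huh7). Over all 16946 genes tested, 3538 (20.9%) differed. Of the 44 Huh7 genes named for the size of their change or as genes of the study, 36 had at least 1 CPM in HCCLM3 and were compared, and 27 of these differed. All but ASH2L and YBX1 were chosen by their change in Huh7, so that count and the sizes of the differences are a description. AREG, higher in Huh7, was lower in HCCLM3, from 32.2, 32.4 and 29.8 CPM to 22.4, 22.8 and 21.4 CPM (-0.50 ± 0.09), and the difference was -2.69. MYOF went with it, at -0.15 ± 0.04 in HCCLM3 (difference -1.69). CDKN2B did not pass the test in HCCLM3 (0.11 ± 0.05, edgeR adjusted p = 0.134, difference -1.45), and neither did FOXM1 (0.06 ± 0.04, edgeR adjusted p = 0.266, difference 0.65). TPM4 rose in both lines, by 1.02 ± 0.04 in HCCLM3 (difference -0.40), and CCND1 fell in both, by more in HCCLM3 (difference -0.37). For 9 genes no difference was called, namely ASH2L, MICB, GAL3ST1, SCML2, LRRC58, LDHA, NOLC1, PPL and ZNF616. A difference that misses the threshold does not show that the lines respond alike.

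**Figure D5:**
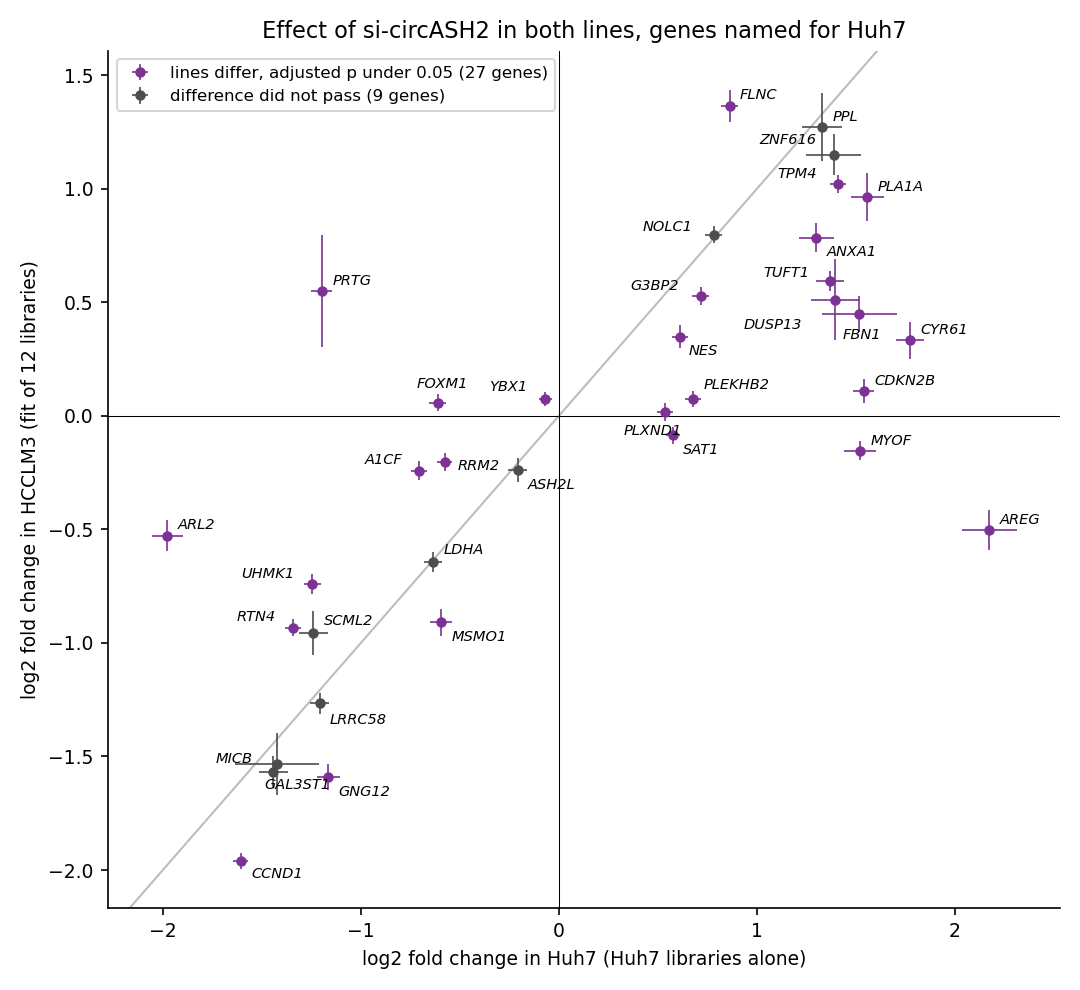
Log2 fold change of si-circASH2 over si-NC in Huh7 (horizontal axis) and HCCLM3 (vertical axis) for 36 genes, 34 named by their change in Huh7 and ASH2L and YBX1 as genes of the study, with standard errors as bars and the line of equal effects. The 27 genes whose effects differed and the 9 for which no difference was called are coloured apart, and AREG, MYOF and CDKN2B lie far below the line.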

How the data were processed

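The authors deposited a table of whole-number counts per gene and a table of FPKM values for all 12 libraries, per the file headers. The counts carry no normalization, and FPKM values are the authors' length- and depth-scaled levels, used here only to state levels per length. GRCm38, hg38 and mm10 are the builds listed in the submitters' processing notes, with no role stated. For aligner and counter, the sources used here name none.

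Groups came from the sample titles. The 6 Huh7 libraries were fitted alone with edgeR 4.0.16 in R 4.3.3 (filterByExpr with a count minimum of 10, TMM factors, robust quasi-likelihood test, 4 residual degrees of freedom, Benjamini-Hochberg adjustment over the 15443 tested features, threshold 0.05). All 12 libraries entered 1 fit for the difference between the lines. The code was tested on simulated data. Coordinates and 3′ UTRs are those of GENCODE 29 (GRCh38), in which 97.75% of the 19729 symbols were matched.

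Among called genes whose groups did not overlap, the 15 largest rises and falls whose higher group reached 5 CPM were named. Under the same conditions the 8 largest each way among those that reached 200 CPM were added. Up to 4 called members per gene list with the smallest p were named without the condition on overlap. ASH2L, TPM4, YBX1 and CCND1 were named whatever their values. Some genes that the rule names are not reported here. A further 32 genes were named after their values were seen: S100A6, S100A4, CDKN1A, CDKN1B, CDKN2A, CDK6, CDK4, CCNE1, MYC, EGFR, NRG1, FOS, FOSL1, IER3, HNF4A, FOXA2, ALB, AFP, BRCA1, MCM2, PLK1, CCNB1, IFIT2, IFITM2, FN1, NR1I2, MICA, SNX15, TAT, KRT18, MT1G and NR2F2. The comparison, the 41 gene lists (40 with a tested member) and the short sequences were chosen with earlier results of these data known.

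The alternatives were RLE and upper quartile factors, no filter on low counts, DESeq2 1.42.0, a replicate block, all 12 libraries in the fit, any annotated 3′ UTR, and each library left out.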

Additional observations from a re-analysis of the deposited data

Results flagged for a closer look

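The genes here were named for their change in Huh7 or as genes of the study, and were picked out because the edgeR test of the difference between the lines passed for them, 27 of 36. Each value is the log2 fold change in HCCLM3 minus that in Huh7. All but YBX1 were chosen by their change in Huh7, which enters each difference. That choice favours a smaller change in HCCLM3, so the directions given here are a description and not a test.

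Genes that rose in Huh7 mostly had a lower value in HCCLM3. The secreted and signalling genes differed by -2.69 for AREG, -1.46 for CYR61, -0.61 for PLA1A and -0.90 for DUSP13. The cell cycle inhibitor CDKN2B differed by -1.45. Membrane and matrix genes differed by -1.69 for MYOF, -1.09 for FBN1, -0.53 for ANXA1 and -0.53 for PLXND1. TUFT1 differed by -0.79, SAT1 by -0.68, PLEKHB2 by -0.62, TPM4 by -0.40, NES by -0.28 and G3BP2 by -0.20. FLNC was the exception among these rises, with a larger rise in HCCLM3 and a difference of 0.49.

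Among genes that fell in Huh7, PRTG differed by 1.73 and ARL2 by 1.43. PRTG stood at only 0.472, 0.973 and 0.686 CPM in HCCLM3 si-NC libraries and at 1.32, 0.825 and 0.971 CPM after knockdown. Its change in HCCLM3 did not pass the test (0.55 ± 0.25, edgeR adjusted p = 0.0997). Carriers of TTATACCA fell less in HCCLM3 in the cases of UHMK1 (0.49), A1CF (0.45) and RTN4 (0.39), and further in that of GNG12 (-0.44). The proliferation genes FOXM1 and RRM2 differed by 0.65 and 0.36. CCND1 and MSMO1 fell further in HCCLM3, by -0.37 and -0.33. YBX1, which did not pass the test in Huh7, differed by 0.13, and this call was lost in 8 of 14 settings (highest edgeR adjusted p = 0.14).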

How the results depend on the processing

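The number of genes called in Huh7 was 5386, and 5343 with RLE factors, 5340 with upper quartile factors, 5305 without a filter on low counts, 4414 with DESeq2, 5314 with all 12 libraries in the fit and 4330 to 4947 with 1 library left out. Replicate numbers did not pair the libraries (correlations of same-numbered deviations -0.34, -0.08 and 0.02), and the replicate block gave 5309 calls, 5169 of them shared with the fit without it. No called gene among those named changed sign under any of these, and EGFR, which was not called, ran from -0.01 to 0.05. Counts of called list members moved by more than 1.5 times as follows, and the cause was not tested. Upper quartile factors gave 27 for the nuclear respiratory chain and 4 for mitochondrially encoded genes. DESeq2 gave 4 for mitochondrially encoded genes, 8 for clock genes and 0 for endothelial markers. All 12 libraries in the fit gave 10 for plasma proteins, 0 for mitochondrially encoded genes and 4 for hepatocyte markers. With 1 library left out, the counts ran from 11 to 21 for glycolysis, 12 to 19 for the ATF4 list, 5 to 11 for tRNA synthetases, 11 to 16 for chaperones of the endoplasmic reticulum, 1 to 6 for mitochondrially encoded genes, 16 to 28 for mitochondrial ribosomal proteins, 4 to 9 for proteasome subunits and 0 to 2 for endothelial markers. The calls of ALB, TF and MT-ND1 were lost with all 12 libraries, that of PSMA2 without si-NC replicate 1, that of COL3A1 in 2 settings, of ESAM in 4 and of MT-ND5 in 7 of 13. The difference between the lines was lost for YBX1 in 8 settings that leave out a library and for G3BP2 without Huh7 si-NC replicate 2 (edgeR adjusted p = 0.0523). The median of a list moved by more than its SD over the si-circASH2 libraries in 85 pairs of list and setting, and stayed within it in 395. That of the hepatocyte transcription factors was -0.29 without si-circASH2 replicate 1 and -0.16 without si-circASH2 replicate 2. That of the endothelial markers was 0.76 as reported and -0.48 with DESeq2. Genes under 1 CPM rest on few counts.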

Other observations

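Of the tested features without a gene symbol, 1 assembled feature, MSTRG.27954, stood at 2.90, 2.42 and 2.28 CPM in the Huh7 si-NC libraries and had no count in any of the 3 si-circASH2 libraries. It was at least 25.1-fold lower, taking 3 counts per library as the limit of a count of 0 (0.101 CPM), and its edgeR adjusted p was 5.26e-10. In HCCLM3 it stood at 10.7, 15.8 and 4.86 CPM in the si-NC libraries and at 23.5, 26.3 and 21.0 CPM in the si-circASH2 libraries. It was the 1 tested feature at 0 in all libraries of 1 Huh7 group and above 0 in all of the other. A further 7 tested features had no count in 1 library and at least 5 CPM in another of the same Huh7 group.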
